A study of Mus musculus with 21 samples.

Results

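The transcripts of 7 histone H2A variant genes, of 24456 genes listed in every library, were followed through mouse spermatogenesis with and without the testis variant H2A.L.2. The 7 genes were chosen by name: *H2afb1*, under which the count tables list the H2A.L.2 gene, *H2afx* (H2A.X), *H2afz* and *H2afv* (both H2A.Z), *H2afy* (macroH2A1), *H2afy2* (macroH2A2) and *H2afj* (H2A.J). Total RNA, depleted of ribosomal RNA, had been sequenced from fractions of testis cells of wild-type (*H2al2* WT) and *H2al2* KO mice. Pachytene spermatocytes, round spermatids and condensing spermatids had 3 libraries per genotype, and spermatozoa had 2 wild-type libraries and 1 *H2al2* KO library. The question put to the data was whether the other H2A variants change when H2A.L.2 is lost, and how the 7 transcripts move from stage to stage. The labels give the tissue, cell type and genotype of each library, but no strain, age or number of animals, and the deleted stretch of the *H2al2* allele is not given in the sources used here. The study calls its wild-type round spermatid libraries biological replicates. For the other groups nothing says that libraries came from separate animals, so that p-values measure the spread between these libraries.

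H2A is among the core histones around which DNA is wound, and its variants replace the ordinary protein at particular places and times. H2A.X is phosphorylated at DNA breaks and over the sex chromosomes in meiosis, H2A.Z marks promoters and is put in and taken out by dedicated exchange factors, and the macroH2A proteins carry a large additional domain and are linked to silenced chromatin. H2A.L.2 is a short testis variant that pairs with the testis H2B variant TH2B and loosens nucleosomes while transition proteins and protamines take over the condensing sperm genome. H2A.J differs little from ordinary H2A.

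The symbol *H2afb1* is ambiguous, and the row used for H2A.L.2 was therefore checked. RefSeq lists *H2afb1* as an older name both of *H2al2a*, the H2A.L.2 gene on chromosome 2, and of an H2A.B gene on the X chromosome. The count tables give that H2A.B gene a row of its own, *Gm14920*, with 21 reads over all 21 libraries against 10533 for *H2afb1*. The gene is a single exon on the minus strand of mm10 chromosome 2, from 17996417 to 17996958. On the same build *H2afx*, also a single exon, lies at chr9:44334694-44336077 and *H2afz* at chr3:137864487-137866922, *H2afv* at chr11:6427229-6444443, *H2afy* at chr13:56073619-56135631, *H2afy2* at chr10:61738665-61784147 and *H2afj* at chr6:136808244-136810074. The coding sequence of *H2afb1* has 336 bases, against 387 in *H2afz* and in *H2afv*, 390 in *H2afj*, 432 in *H2afx* and 1119 in *H2afy* and in *H2afy2*. Base for base it matched the coding sequences of the other 6 genes at 27.0% to 55.7% of aligned positions. The closest pairs among the 7 were *H2afx* with *H2afj* (81.5%), *H2afz* with *H2afv* (79.4%) and *H2afy* with *H2afy2* (70.6%). Reads were 75 bases long. No 2 of the 7 transcripts shared an identical run above 51 bases, and *H2afb1* shared at most 63 bases with any of 20 H2A.L and H2A.B genes.

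The upstream regions of the H2A.L.2 gene and of both H2A.Z genes are shown because the former rose and the latter fell between pachytene spermatocytes and round spermatids. Each is the 250 bases before the RefSeq start in GRCm38.p6, in the direction of transcription. Capitals mark the letters CCAAT and GGGCGG on either strand. The region of *H2afb1* is chr2:17996959-17997208 (minus strand), that of *H2afz* chr3:137864237-137864486 (plus) and that of *H2afv* chr11:6444444-6444693 (minus). The *H2afy* window reaches into the first exon of GENCODE transcripts. That of *H2afy2*, chr10:61783865-61784114 (minus), lies wholly within the GENCODE gene, and that of *H2afj* ends at chr6:136808247, just inside it. These windows are not printed, and their counts below describe bases before the RefSeq start, not before the GENCODE start.
H2afb1: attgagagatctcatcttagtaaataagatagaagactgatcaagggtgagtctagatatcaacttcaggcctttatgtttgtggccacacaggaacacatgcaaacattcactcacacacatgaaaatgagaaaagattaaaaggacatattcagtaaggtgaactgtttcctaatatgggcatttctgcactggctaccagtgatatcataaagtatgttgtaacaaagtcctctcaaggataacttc
H2afz: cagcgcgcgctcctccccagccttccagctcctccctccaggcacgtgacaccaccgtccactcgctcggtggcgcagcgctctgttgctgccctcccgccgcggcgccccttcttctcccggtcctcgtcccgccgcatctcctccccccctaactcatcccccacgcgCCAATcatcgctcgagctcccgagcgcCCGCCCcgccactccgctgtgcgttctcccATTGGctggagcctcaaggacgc
H2afv: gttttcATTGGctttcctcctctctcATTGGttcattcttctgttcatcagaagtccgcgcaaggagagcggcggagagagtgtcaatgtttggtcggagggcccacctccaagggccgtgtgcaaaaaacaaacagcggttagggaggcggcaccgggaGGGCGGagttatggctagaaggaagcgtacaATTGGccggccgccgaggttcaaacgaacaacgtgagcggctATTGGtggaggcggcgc
In the *H2afb1* window 37.2% of bases were G or C and no CpG was present, as in 7.87% of 32851 RefSeq promoters of this length. The *H2afy* window held 29 CpG, *H2afz* 28, *H2afv* 19, *H2afy2* 14 and *H2afj* 9, where the median promoter held 6.0. CCAAT, found on either strand in 33.8% of all these promoters, occurred 2 times in the *H2afz* window, 4 times in *H2afv* and 3 times in *H2afj*, and GGGCGG (32.7% of promoters) 1 time in *H2afz* and in *H2afv* and 2 times in *H2afy* and in *H2afj*. Neither motif was found for *H2afb1* or *H2afy2*, and CCAAT was not found for *H2afy*. TATAAA (12.4% of promoters) and TGACG, the core of the cAMP response element (17.8%), were searched on both strands as well and found in none of the 6 windows. GGGCGG and TGACG each contain CG, so that the *H2afb1* window, which has no CpG, could not hold them. Whether these motifs go with the direction of change was not tested. No motif match overlapped another. The *H2afx* window was not analysed here.

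Counts on genes ranged from 2772995 to 8201682 per library, with a median of 6872271, and the spermatozoa libraries were the shallowest. The 7 genes took 0.0188% to 0.0771% of these counts. Levels below are normalized CPM, counts scaled to library size with TMM factors over all 21 libraries, and levels of different genes are compared only as CPM per kb of exon. Markers of pachytene spermatocytes summed to 2013 to 3142 normalized CPM in the pachytene fractions and to at most 1136 elsewhere, and round spermatid markers to 2624 to 2825 in the round fractions and to at most 2012 elsewhere. Condensing spermatid markers summed to 33854 to 50293 in condensing, 30968 to 39381 in round and 4167 to 8426 in pachytene fractions. Other cell types were present in part. Sertoli markers summed to 341 to 439 normalized CPM in wild-type and 277 to 333 in *H2al2* KO condensing fractions, 28.5 to 35.1 and 11.3 to 20.5 in pachytene fractions and 27.9 to 42.8 and 19.9 to 27.9 in round fractions. Macrophage markers summed to 3625 in the spermatozoa library of *H2al2* KO, 740 and 781 in those of wild type and at most 35.2 elsewhere. Leydig markers summed to 153 to 238 in wild-type and 92.0 to 137 in *H2al2* KO condensing fractions, 82.0 to 169 and 26.0 to 109.9 in pachytene fractions and at most 17.2 elsewhere. The highest sums were 119 for spermatogonium, 415 for peritubular myoid and 50.4 for red blood cell markers. Epididymis markers lay at 1526 and 1614 in wild-type spermatozoa, 533 in *H2al2* KO spermatozoa and at most 297 elsewhere, with *Lcn5* and *Lcn8* at 0 in every library.

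*H2afb1*, the gene deleted in *H2al2* KO, stood lower in *H2al2* KO at all 4 stages, with no overlap between genotypes. In wild-type round spermatids it stood at 201, 206 and 212 normalized CPM, and in *H2al2* KO round spermatids at 25.4, 25.4 and 20.7. Condensing spermatids had 189.9, 159.6 and 249.8 in wild type and 26.4, 35.7 and 29.9 in *H2al2* KO. The genotypes were far apart at both stages, and the KO libraries still held 144 to 182 reads of the gene in round and 184 to 258 in condensing spermatids. In round spermatids the level fell by 3.10 on the log2 scale (SE 0.10, adjusted p = 1.42e-10, quasi-likelihood test of edgeR, adjusted after Benjamini and Hochberg), leaving 11.6% of the wild-type mean. In condensing spermatids it fell by 2.71 (SE 0.17, adjusted p = 1.40e-06), leaving 15.4%. With a gene called at an adjusted p under 0.05, *H2afb1* was 1 of 3 genes called among 12804 in round spermatids (0.0234%, 706 genes with an unadjusted p under 0.05) and the only gene called among 13734 in condensing spermatids (0.00728%, 877 genes). These counts over all genes rested on single libraries. In round spermatids 293 genes were called without replicate 1 of wild type and 1 without replicate 3 of wild type. In condensing spermatids 5, 23 and 9 were called without replicate 1, 2 or 3 of wild type and 4 without replicate 1 of *H2al2* KO. *H2afb1* was called in each of these fits and the other 6 variants in none.

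Pachytene spermatocytes, in which the gene is at a low level, gave a less even picture. Wild-type libraries had 40.5, 36.4 and 14.5 normalized CPM from 339, 307 and 99 reads, and *H2al2* KO libraries 4.78, 4.91 and 3.14 from 31, 31 and 22 reads. All 3 KO libraries lay below the lowest wild-type library, but replicate 3 of wild type lay well below the other 2. The log2 fold change was -2.75 (SE 0.39), and it did not pass the test across 12236 genes (adjusted p = 0.581, edgeR's quasi-likelihood test), in which no gene was called (0.0%) and 769 had an unadjusted p under 0.05. Without replicate 3 of wild type the fold change was -3.06 and passed (adjusted p = 6.67e-06), as 1 of 113 genes called, and the DESeq2 Wald test called 2 genes, of which *H2afb1* was 1 (adjusted p = 1.99e-11). The summed condensing spermatid markers of the 3 wild-type libraries were 8426, 8148 and 4167 normalized CPM, low in the same library, and those of the KO libraries 4847, 5280 and 5239. The part of these spermatid transcripts in the pachytene value was not tested. In spermatozoa *H2afb1* stood at 58.2 and 45.8 in wild type and 14.8 in the single *H2al2* KO library, a difference that was not tested.

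**Figure D1:**
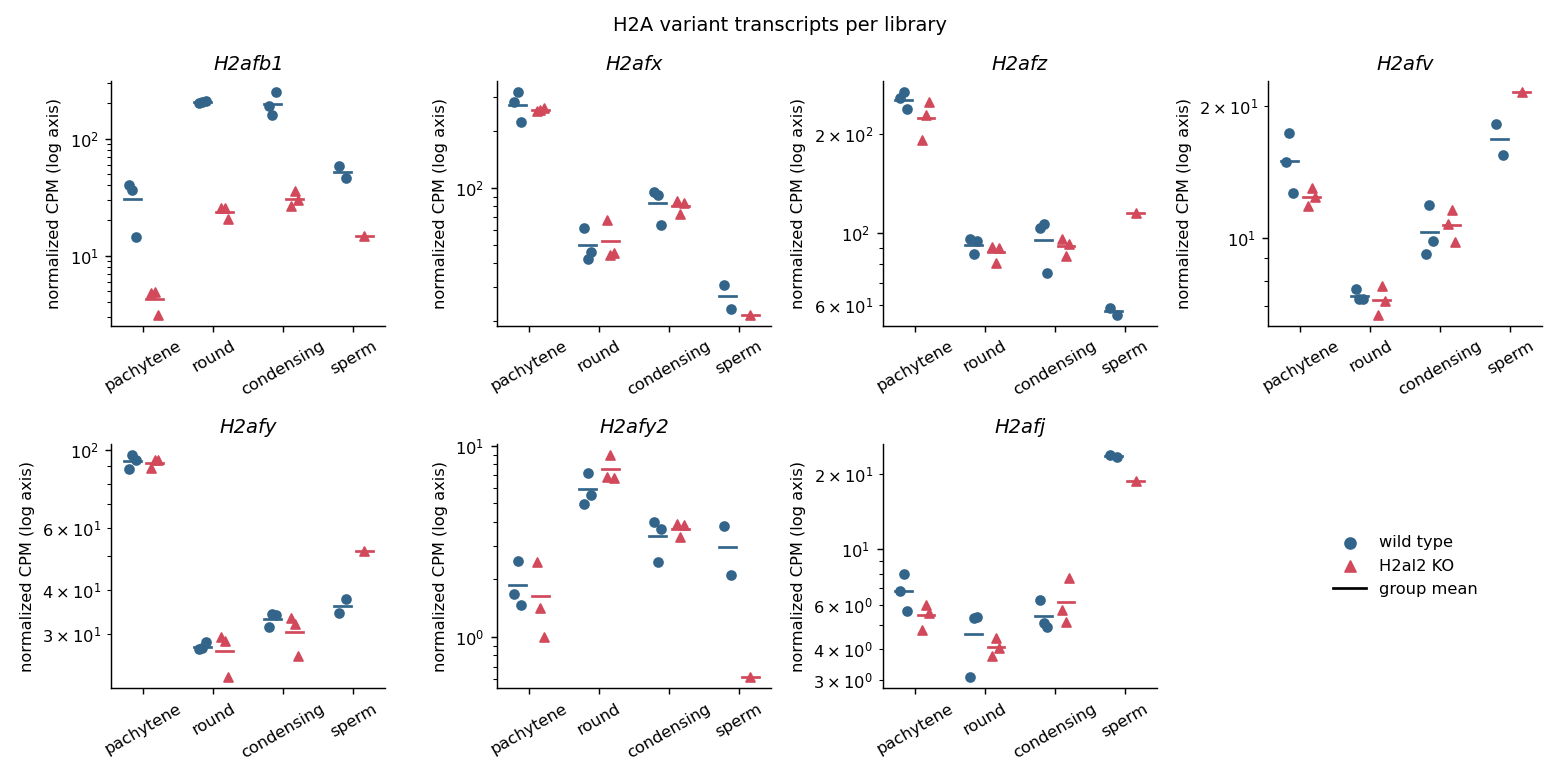
Normalized CPM (log axis) of each of the 7 H2A variant genes in all 21 libraries, by stage, with circles for wild type, triangles for *H2al2* KO and a line at each group mean. *H2afb1* is separated by genotype at every stage, while the other 6 genes overlap between genotypes in pachytene spermatocytes, round spermatids and condensing spermatids.

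None of the other 6 variants was called in *H2al2* KO at any stage. Their 18 log2 fold changes lay between -0.25 and 0.36, 12 below 0 and 6 above, with adjusted p from 0.680 to 0.999 by edgeR's quasi-likelihood test, and the genotypes overlapped in all 18. All 18 of the 95% intervals held 0, and 17 of them lay wholly within a 2-fold change in either direction. The exception was *H2afy2* in pachytene spermatocytes, with only 7 to 21 reads per library and a lower bound of -1.06. Calls were at or below 0.0234% of all genes in these comparisons, and a count of 0 among 6 does not set these genes apart from that background. Between the genotypes compared, Sertoli marker sums were lower in *H2al2* KO with no overlap in pachytene and condensing fractions, and Leydig marker sums in condensing and round fractions. In condensing fractions macrophage sums were also lower without overlap (17.8 to 25.8 normalized CPM in *H2al2* KO, 26.6 to 35.2 in wild type). Round spermatid sums were higher there without overlap (1802 to 2012 in *H2al2* KO, 1759 to 1787 in wild type). The part of other cells and of the germ cell mix in these estimates was not tested.

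*H2afz*, the main H2A.Z gene, had the narrowest interval of the 18. It stood at 95.7, 86 and 94.1 normalized CPM in wild-type and 90.2, 80.7 and 89.9 in *H2al2* KO round spermatids, an interval of -0.26 to 0.12 for the log2 fold change. *H2afx*, the gene of the DNA break variant, stood at 61.6, 42.2 and 45.9 in wild type and 67.9, 44.2 and 45.2 in *H2al2* KO, an interval of -0.38 to 0.54. In each genotype 1 library of *H2afx* was high and the other 2 were close together. In condensing spermatids the intervals were -0.34 to 0.19 for *H2afz* and -0.34 to 0.22 for *H2afx*, and in pachytene spermatocytes -0.38 to 0.14 and -0.26 to 0.23.

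*H2afy2*, which encodes macroH2A2, had the largest estimate of the 18. In round spermatids it stood at 4.96, 7.25 and 5.52 normalized CPM in wild type (37 to 52 reads) and at 6.83, 8.97 and 6.76 in *H2al2* KO (47 to 61 reads). The highest wild-type library lay above the lowest KO libraries, and the log2 fold change of 0.36 had an interval of -0.10 to 0.81 (adjusted p = 0.965 by edgeR's quasi-likelihood test, unadjusted p = 0.115). *H2afy*, which encodes the more abundant macroH2A1, stood at 27.1 to 28.4 in wild-type and 22.6 to 29.4 in *H2al2* KO round spermatids, with an interval of -0.29 to 0.24. *H2afv*, the minor H2A.Z gene, had 7.25 to 7.65 and 6.69 to 7.79, with an interval of -0.40 to 0.36, and *H2afj* had 3.09 to 5.37 and 3.76 to 4.41, with an interval of -0.70 to 0.39.

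**Figure D2:**
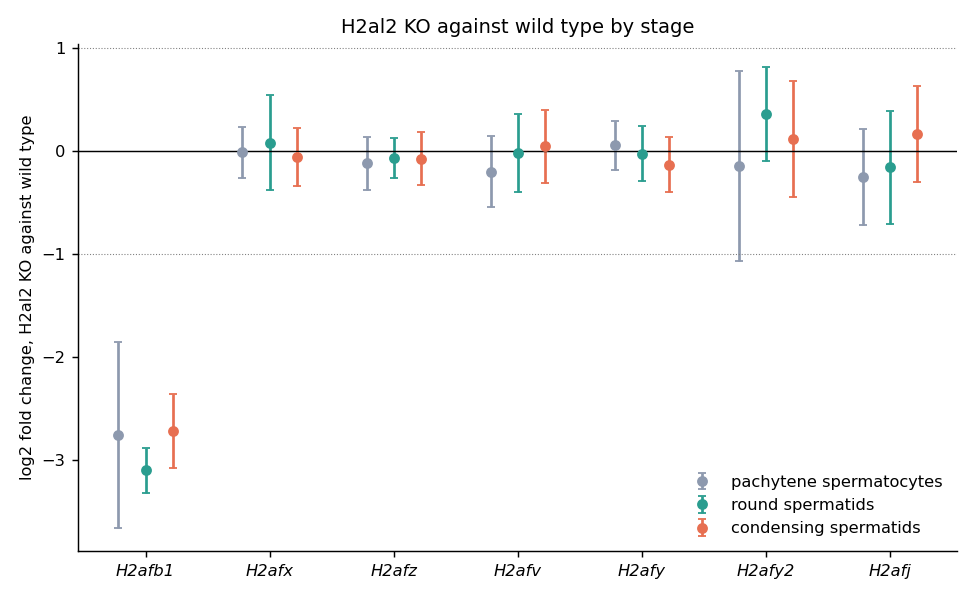
Log2 fold change of *H2al2* KO against wild type for each of the 7 genes in 3 stages, with 95% intervals from edgeR's quasi-likelihood fit and dotted lines at a 2-fold change. The 3 *H2afb1* estimates lie between -3.10 and -2.71, and the 18 others between -0.25 and 0.36 with intervals that hold 0.

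The KO effect was also compared between stages within 1 model. Between round spermatids and pachytene spermatocytes the 7 differences in KO effect lay between -0.32 (*H2afb1*) and 0.52 (*H2afy2*), with adjusted p from 0.771 to 0.949. Between condensing and round spermatids they lay between -0.24 (*H2afy2*) and 0.39 (*H2afb1*), each with an adjusted p of 0.9998. No gene of 14479 was called in either (0.0% and 0.0%), with 1003 and 402 at an unadjusted p under 0.05 in edgeR's quasi-likelihood test.

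Over wild-type stages the 7 genes went separate ways. From pachytene spermatocytes to round spermatids 2 rose, *H2afb1* and *H2afy2*, where 34.4% of 14011 genes rose, and 5 fell, where 35.9% fell. Both macroH2A genes moved, in opposite directions. *H2afb1* averaged 30.5 ± 14.0 and then 206 ± 5.52 normalized CPM (SD, n = 3), with a change of 2.77 on the log2 scale (SE 0.32, adjusted p = 2.03e-05, edgeR's quasi-likelihood test). *H2afy2* rose from 1.87 ± 0.543 to 5.91 ± 1.19, a change of 1.65 (SE 0.28, adjusted p = 1.23e-04), and *H2afy* fell from 92.8 ± 4.38 to 27.6 ± 0.724, a change of -1.73 (SE 0.11, adjusted p = 2.22e-08). No library of round spermatids overlapped the pachytene libraries for these 3 genes. In bulk RNA, fewer cells of a type and less RNA per cell cannot be told apart.

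The DNA damage variant fell most. *H2afx* stood at 281, 319 and 223 normalized CPM in the wild-type pachytene libraries and at 61.6, 42.2 and 45.9 in round spermatids, a log2 fold change of -2.43 (SE 0.19, adjusted p = 1.30e-07, edgeR's quasi-likelihood test). Both H2A.Z genes fell with it. *H2afz* stood at 258, 269 and 238 in pachytene spermatocytes and 95.7, 86 and 94.1 in round spermatids (-1.45, SE 0.14, adjusted p = 5.00e-07), and *H2afv* at 15.0, 17.4 and 12.7 and 7.65, 7.25 and 7.26 (-1.0, SE 0.17, adjusted p = 1.14e-04). Every pachytene library was above every round spermatid library for all 3 genes. *H2afj* fell by 0.56 (SE 0.24, adjusted p = 0.0493), a call that was lost without 1 of 6 of the 9 libraries in turn (replicates 1 and 2 of pachytene spermatocytes, replicate 1 of round spermatids and each of condensing spermatids, adjusted p = 0.0566 to 0.210 by edgeR's quasi-likelihood test).

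The same step in *H2al2* KO, in libraries that the wild-type fit does not use, gave 2 genes higher and 4 lower, against 36.5% and 38.4% of 13877 genes. *H2afb1* itself, at its reduced level, rose by 2.46 on the log2 scale (SE 0.19) between KO pachytene spermatocytes and KO round spermatids, and *H2afy2* by 2.18 (SE 0.29). *H2afx* changed by -2.32, *H2afy* by -1.80, *H2afz* by -1.39 and *H2afv* by -0.80, with adjusted p of 2.36e-04 or below by edgeR's quasi-likelihood test. *H2afj* did not pass, with -0.44 (adjusted p = 0.0959). The differences from the wild-type step are the differences in KO effect given above, and none of the 7 passed.

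From round to condensing spermatids the changes were smaller. In wild type *H2afx* rose by 0.76 (SE 0.19, adjusted p = 0.00462) and *H2afv* by 0.51 (SE 0.18, adjusted p = 0.0288), *H2afy2* fell by 0.78 (SE 0.27, adjusted p = 0.0269), and 4 of the 7 did not pass edgeR's quasi-likelihood test, against 28.2% of genes that rose and 21.8% that fell. *H2afb1* did not pass, with a change of -0.02 and an interval of -0.67 to 0.63. *H2afy* had 0.29 (adjusted p = 0.0505), which passed without pachytene replicate 2 (adjusted p = 0.0490), with library size only (0.0288) and with at least 10 reads in every library (0.0157). The count of 3 became 1 without replicate 2 of wild-type round spermatids and 1 without replicate 2 of wild-type condensing spermatids: *H2afy2* was then at an adjusted p of 0.123 and 0.0904, and *H2afv*, also lost without replicate 1 or 3 of round spermatids, between 0.0518 and 0.156. From round to condensing libraries of wild type the marker sums rose without overlap for pachytene spermatocytes (616 to 695, then 935 to 1136 normalized CPM), Sertoli cells (27.9 to 42.8, then 341 to 439) and Leydig cells (at most 15.5, then 153 to 238). *H2afx* and *H2afv* are both higher in pachytene spermatocytes than in round spermatids. The part of these cells in the changes was not tested.

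In *H2al2* KO the step to condensing spermatids gave 4 genes higher and 1 lower, where 29.7% and 24.5% of 13877 genes were called. *H2afx* (0.64) and *H2afv* (0.59) rose and *H2afy2* fell (-1.01), and *H2afb1* (0.38, adjusted p = 0.0329) and *H2afj* (0.61, adjusted p = 0.0297) passed as well. Marker sums of pachytene spermatocytes went from 532 to 703 normalized CPM in round up to 944 to 1076 in condensing libraries of *H2al2* KO, those of Sertoli cells from 19.9 to 27.9 up to 277 to 333 and those of Leydig cells from 6.62 to 11 up to 92.0 to 137, and their part in the calls was not tested. The calls of *H2afb1* and *H2afj* were less firm by edgeR's quasi-likelihood test. *H2afb1* was lost without replicate 3 of round (adjusted p = 0.192) or replicate 2 of condensing spermatids (0.226), and *H2afj* without replicate 1 or 3 of round (0.0895 and 0.0783) or replicate 3 of condensing spermatids (0.170), so that the count of 5 became 3 without round spermatid replicate 3, and 3 with the DESeq2 Wald test.

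Over both steps together, condensing spermatids against pachytene spermatocytes in wild type, *H2afb1* (2.76) and *H2afy2* (0.87) were higher, against 37.6% of genes, and *H2afx* (-1.67), *H2afy* (-1.43), *H2afz* (-1.38) and *H2afv* (-0.49) lower, against 35.7%. *H2afj* had -0.28 (adjusted p = 0.295 by edgeR's quasi-likelihood test). The *H2afv* call was lost without pachytene replicate 2 (adjusted p = 0.0695) or condensing replicate 1 (0.0660) and with at least 10 reads in every library (0.0735), and the *H2afy2* call without pachytene replicate 1 or 3 (0.0676 and 0.0603) or condensing replicate 1 or 3 (0.0870 and 0.0609).

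In wild-type spermatozoa against condensing spermatids *H2afj* and *H2afv* were higher, where 35.6% of 15734 genes were, and *H2afb1*, *H2afx* and *H2afz* lower, where 34.4% were. *H2afj* had the largest rise, from 6.30, 5.08 and 4.92 normalized CPM to 23.8 and 23.3 (log2 fold change 2.16, SE 0.25, adjusted p = 4.10e-07, edgeR's quasi-likelihood test), and the groups lay far apart. *H2afb1* changed by -1.89 (SE 0.36, adjusted p = 7.15e-04), *H2afx* by -1.57 (SE 0.24), *H2afz* by -0.68 (SE 0.16) and *H2afv* by 0.76 (SE 0.21, adjusted p = 0.00406, or 0.0697 without spermatozoa replicate 1). *H2afy* (0.17) and *H2afy2* (-0.10) did not pass, though *H2afy* did with at least 10 reads in every library (0.35, adjusted p = 0.0283 by edgeR's quasi-likelihood test). Macrophage markers rose from at most 35.2 normalized CPM in the condensing fractions to 740 and 781 in these 2 libraries, and epididymis markers from at most 297 to 1526 and 1614, and their part in the changes was not tested.

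**Figure D3:**
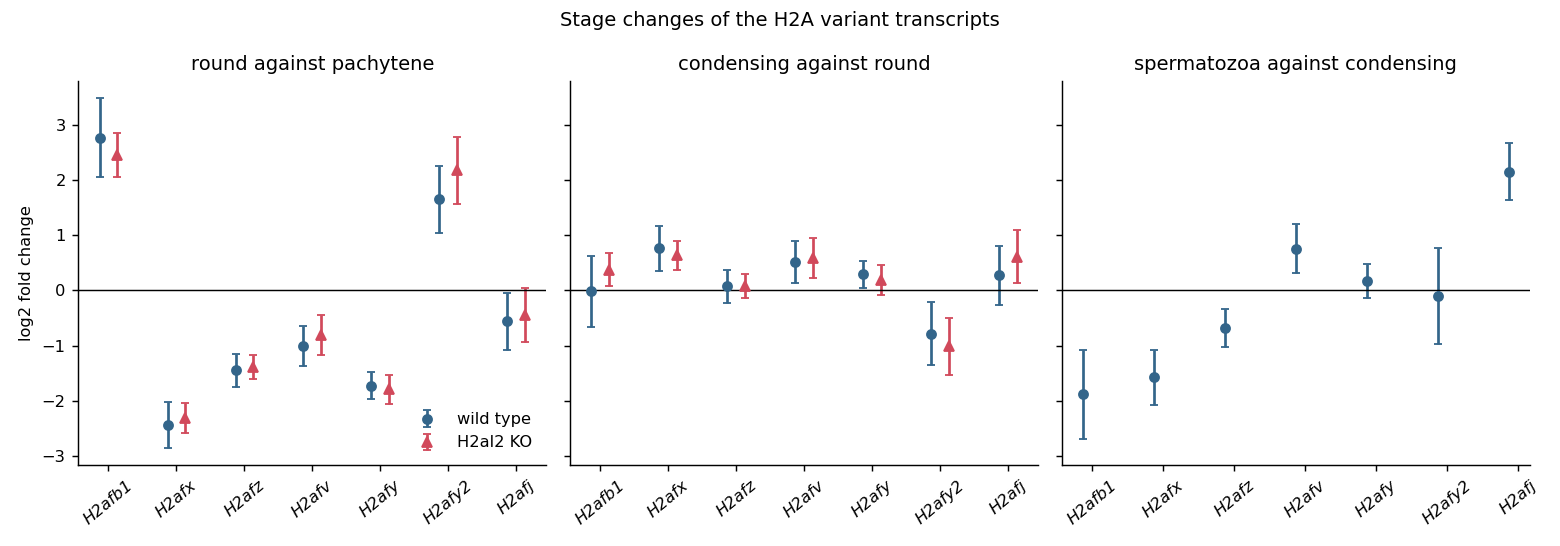
Log2 fold changes of the 7 genes between successive stages, with 95% intervals from edgeR's quasi-likelihood fits, in wild type (circles) and, where replicates exist, in *H2al2* KO (triangles). From pachytene spermatocytes to round spermatids *H2afb1* and *H2afy2* lie above 0 and *H2afx*, *H2afz*, *H2afv* and *H2afy* below 0 in both genotypes, and in spermatozoa *H2afj* stands highest at 2.16.

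By level, the wild-type order of stages thus differed between genes. *H2afb1* was highest in round and condensing spermatids, which overlapped, then spermatozoa, then pachytene spermatocytes, a range of 6.77-fold between stage means. *H2afx* and *H2afz* both ran from pachytene spermatocytes through condensing and round spermatids to spermatozoa, over 10.2-fold and 4.46-fold, with condensing and round spermatids overlapping for *H2afz* only. *H2afy* was highest in pachytene spermatocytes and lowest in round spermatids (3.36-fold), with no overlap between neighbours. *H2afv* and *H2afj* were highest in spermatozoa and lowest in round spermatids, over 2.29-fold and 5.14-fold. For *H2afv* spermatozoa overlapped pachytene spermatocytes, and for *H2afj* condensing libraries overlapped those of pachytene spermatocytes and of round spermatids. *H2afy2* was highest in round spermatids and lowest in pachytene spermatocytes (3.15-fold), with condensing spermatids, spermatozoa and pachytene spermatocytes overlapping.

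On a per-length scale the 7 genes can be set beside each other. In wild-type pachytene spermatocytes *H2afz* led with 239 ± 14.7 CPM per kb (SD, n = 3), followed by *H2afx* with 198 ± 34.8, *H2afb1* with 56.2 ± 25.8 and *H2afy* with 43.4 ± 2.05. *H2afz* and *H2afx* together made up most of the sum of the 7, and *H2afb1* 9.91% ± 3.76 (SD, n = 3). In wild-type round spermatids *H2afb1* led with 380.4 ± 10.2 CPM per kb, above *H2afz* with 86 ± 4.84 and *H2afx* with 36.0 ± 7.43. Its share of the sum was then 72.4% ± 1.80, with 67.2% ± 8.26 in condensing spermatids and 45.5% ± 2.78 (n = 2) in spermatozoa.

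In *H2al2* KO spermatids the mix was led by *H2afz*, as in pachytene spermatocytes. In *H2al2* KO round spermatids *H2afz* made up 43.9% ± 3.57 of the sum, *H2afb1* 23.7% ± 2.27 and *H2afx* 20.2% ± 3.42 (SD, n = 3), against 16.4% ± 0.710 and 6.86% ± 1.40 for *H2afz* and *H2afx* in wild type. The levels of these 2 genes themselves did not pass the test between genotypes, and a share moves with its denominator as well as with its gene. The summed level of the 7 genes was 515 to 535 CPM per kb in wild-type and 175 to 203 in *H2al2* KO round spermatids, and 487 to 603 against 225 to 227 in condensing spermatids, so that the genotypes did not overlap at either stage. These sums include the deleted *H2afb1*, which averaged 380.4 CPM per kb in wild-type and 44.0 in *H2al2* KO round spermatids. In condensing spermatids its means were 369 and 56.6. The lower sums are therefore no result about the other 6 genes. In pachytene spermatocytes the sums overlapped, at 466 to 611 against 424 to 485. Without division by length the share of *H2afb1* in wild-type round spermatids was 52.4%, since its transcript is the shortest of the 7.

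**Figure D4:**
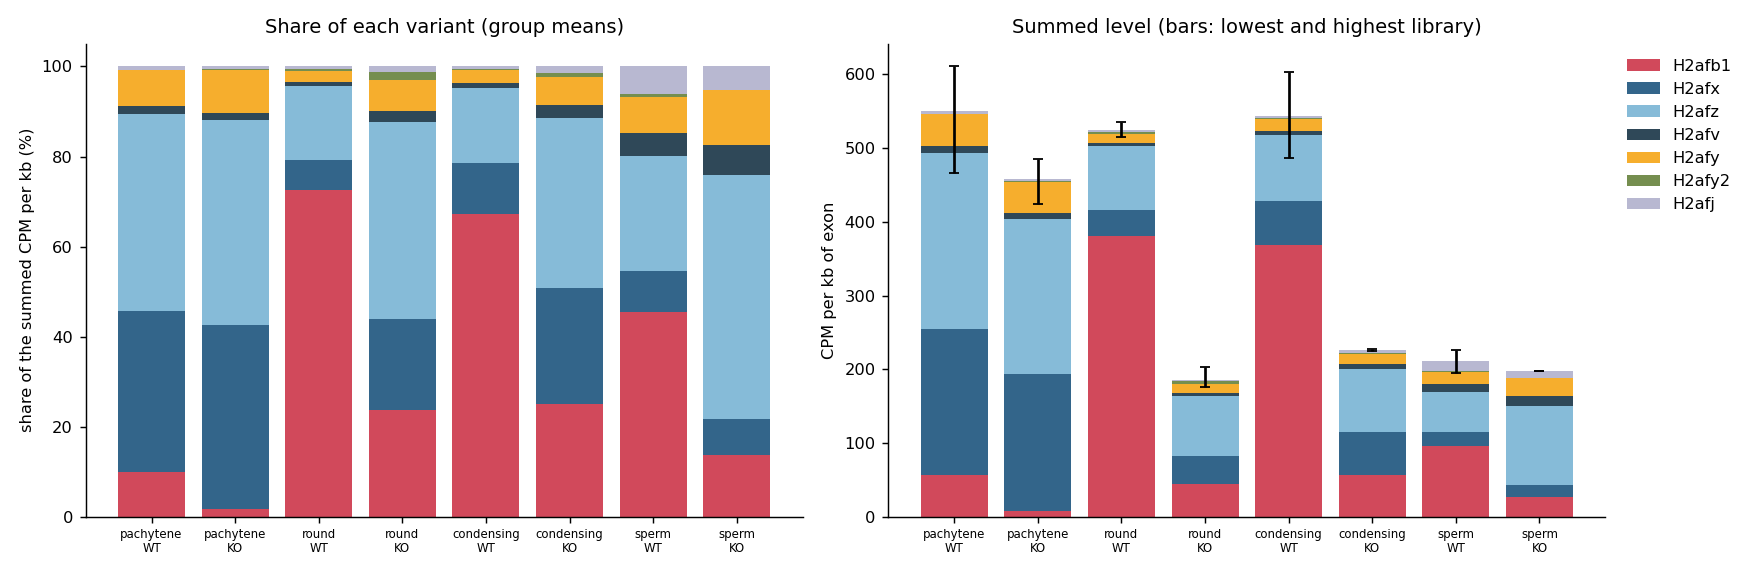
Left, mean share (%) of each of the 7 genes in their summed CPM per kb of exon, by stage and genotype. Right, the same sums in CPM per kb as stacked group means, with bars from the lowest to the highest library of the group. *H2afb1* makes up 72.4% of the sum in wild-type and 23.7% in *H2al2* KO round spermatids. The sum, which includes this deleted gene, is 515 to 535 CPM per kb in the former and 175 to 203 in the latter.

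Other genes of the H2A family and of the variants' pathways, 91 listed genes with a row, were looked at in the same fits. In *H2al2* KO none was called, of 66 tested in pachytene spermatocytes, 69 in round spermatids and 68 in condensing spermatids by edgeR's quasi-likelihood test (3, 5 and 3 with an unadjusted p under 0.05, lowest adjusted p 0.672, 0.799 and 0.675). Among the other variant H2A genes, which include the H2A.L.1, H2A.B and H2A.P families, the median log2 fold change in round spermatids was -0.12 over 10 tested, beside -0.0037 over all genes, and the largest change in either direction was 0.71. Among clustered H2A genes, which encode ordinary H2A, it was 0.05 over 8 tested, and among H2A.Z exchange factors -0.00018 over 17. Of the 23 rows of other variant H2A genes, 10 were listed at 0 in all 21 libraries. Multiply aligned reads were left uncounted, and many H2A.L.1 genes are near-identical copies, so that these rows are uncertain.

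In wild type the other variant H2A genes moved at the entry to spermiogenesis, 8 higher and 2 lower of 10 tested in round spermatids against pachytene spermatocytes, with a median of 2.50 against -0.02 over all genes, of which 34.4% were called higher and 35.9% lower. In the fit on pachytene libraries alone only 6 rows of this list passed the filter. The others entered through spermatid libraries, where they are high. The filter thus favoured a rise for them, and the count and median are a description only. *Gm5382*, an H2A.L.1 gene (*H2al1n*), rose from 5.01 to 31.6 normalized CPM and *Hypm*, which encodes H2A.P, from 19.6 to 121. *H2afy3*, another macroH2A gene, fell from 39.0 to 6.77 and *Hist1h2aa*, the testis variant TH2A, from 66.2 to 19.1. In *H2al2* KO the same step gave 8 higher and 2 lower, against 36.5% and 38.4% of all genes, and in wild-type spermatozoa all 9 tested were lower than in condensing spermatids, against 34.4%. The same limit of the filter holds for both counts. Clustered H2A genes had 0 higher and 3 lower of 10 in wild-type round spermatids, a share lower near that of all genes (35.9%), with *Hist2h2ab* at 8.23 and 0.318 and *Hist2h2ac* at 7.66 and 0.920 normalized CPM. Those 2 rose again in condensing spermatids (2.18 and 1.58 on the log2 scale) while *Hist1h2ah* fell (-1.05), making 3 higher and 1 lower of 10, where 28.2% and 21.8% of all genes were called.

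Of 17 genes listed as exchange factors of H2A.Z, 13 were lower in round spermatids and 0 higher, beside 35.9% and 34.4% of all genes, with a median of -0.85 against -0.02. The list also holds histone chaperones not limited to H2A.Z, among them the genes with the largest falls. *Supt16*, which encodes a subunit of the chaperone FACT, fell from 216 to 42.2 normalized CPM and *Nap1l1*, a histone chaperone, from 203 to 52.1. In condensing against round spermatids 5 were higher and 3 lower, shares near those of all genes (28.2% and 21.8%). *Anp32e*, the chaperone that removes H2A.Z, rose from 2.97 to 16.9 and *Supt16* to 79.3, and the helicase gene *Ruvbl2* and *Actl6a*, both of the exchange complexes, fell from 150.2 to 84.4 and from 113 to 63.4. Among 18 genes of H2A.X signalling, 9 were lower and 3 higher in round spermatids, beside 35.9% and 34.4% of all genes. *Mdc1*, which binds phosphorylated H2A.X, fell from 849 to 215 and *Topbp1* from 140.0 to 33.2, while *Brca1* rose from 19.4 to 48.5. *Eya1*, an H2A.X phosphatase gene, rose from 0.274 to 2.43, with only 152 reads over all 21 libraries. Its pachytene mean lay below 0.372 CPM, the level of 3 reads in a wild-type pachytene library. In condensing spermatids *Topbp1* and *Hormad1* rose (0.99 and 0.96) and *Eya1* and *Eya3* fell (-1.58 and -0.64), among 3 higher and 3 lower of 18, beside 28.2% and 21.8% of all genes. *Hormad1* is also in the list of pachytene spermatocyte markers, whose sum rose between these libraries as given above. *Supt16* and *Topbp1*, which rose in condensing spermatids, are both higher in pachytene than in round spermatids. Sertoli and Leydig marker sums rose at this step too, and the part of these cells in the changes of listed genes was not tested.

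Of 6 macroH2A partners 3 were lower and 0 higher in round spermatids, beside 35.9% and 34.4% of all genes, with *Parp1*, the enzyme that macroH2A1 can bind, at 190 and 61.2 and *Parg*, which reverses its product, at 78.3 and 17.4 normalized CPM. *Atrx* (1.90) and *Parg* (1.11) rose and *Hdac1* (-0.72) fell in condensing spermatids. Of the 6, 3 were higher and 1 lower there, beside 28.2% and 21.8% of all genes. Of 10 partners of H2A.L.2 and TH2B, 6 were higher and 2 lower in round spermatids, beside 34.4% and 35.9% of all genes. *Prm1*, a protamine gene, rose from 548 to 3855 and *Tnp1*, a transition protein gene, from 520 to 3627. *Hist1h2ba*, which encodes TH2B, fell from 777 to 61.6 and rose to 221 in condensing spermatids, so that its transcript and that of *H2afb1* moved in opposite directions at the first step. *Nutm1* and *Crebbp* fell by 1.47 and 0.54 on the log2 scale from round to condensing spermatids. At this step marker sums of pachytene spermatocytes, Sertoli cells and Leydig cells rose, and their part in the changes of these genes was not tested.

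**Figure D5:**
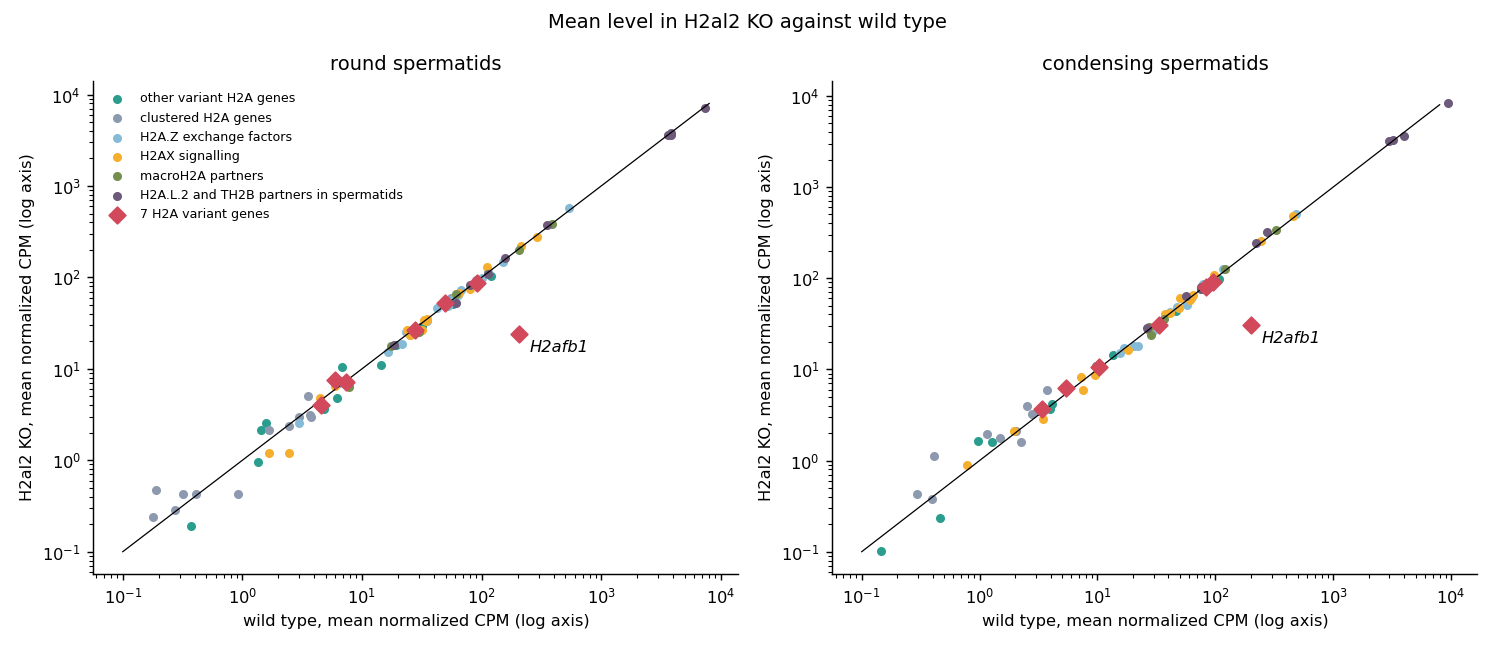
Mean normalized CPM in *H2al2* KO against wild type (log axes) for the 7 H2A variant genes (diamonds) and the 6 gene lists (circles, genes above 0.1 in both genotypes), in round and condensing spermatids, with the line of equality. *H2afb1* is the only diamond away from the line, at 206 against 23.8 in round spermatids, and no listed gene was called.

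Over the 11 wild-type libraries, the genes whose log2(CPM + 0.5) followed each variant most closely among 15131 with at least 1 CPM on average are given as a description, since these libraries share their stages. *H2afb1* followed *Prm1* (r = 0.998), *H1fnt*, a spermatid linker histone gene (0.997), and *Sppl2c* (0.997). *H2afx* followed *Tmem129*, *Pld6* and *Atxn7l3b* (0.992 to 0.994), and *H2afz* followed *Wdr11* (0.996) and *Mrpl37* (0.994). *H2afy* followed *Epn2*, *Gnao1* and *Ift20* (0.991 to 0.997), *H2afv* followed *Stub1*, *Cs* and *Ulk1* (0.979 to 0.991), and *H2afj* followed *Scap*, *Cryl1* and *Apeh* (0.974 to 0.978). *H2afy2*, with the fewest reads, had the lowest values, with *Tm2d1*, *Slc44a5* and *Kbtbd4* at 0.941 to 0.949. Among the 7 themselves *H2afx* and *H2afz* were closest (r = 0.970), and *H2afb1* was positive with *H2afy2* (0.808) and negative with *H2afy* (-0.851).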

How the data were processed

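Libraries of fractionated mouse testis cells, 21 in all, had been made from ribosomal RNA-depleted total RNA with a stranded kit and sequenced from both ends on a NextSeq. The authors aligned paired reads to mm10 with STAR 2.7.11b, used HTSeq for exon counting (reverse strand, intersection-strict mode, uniquely aligned reads) and deposited raw counts per gene without normalization. The 5 rows that name no gene, with 34.6% to 57.7% of the counted reads, entered neither library sizes nor tests.

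Differences were tested across all genes with edgeR 4.0.16 (R 4.3.3) by the quasi-likelihood F test with robust dispersion, TMM scaling, genes kept by filterByExpr and a Benjamini-Hochberg threshold of 0.05. *H2al2* KO was compared with *H2al2* WT within each stage, stages within each genotype over its 3 stages (and wild-type spermatozoa in a fit on all wild-type libraries), and KO effects between stages as interactions over 18 libraries. The single *H2al2* KO spermatozoa library was not tested. Levels are TMM-scaled CPM over all 21 libraries. Intervals of fold changes are 95% intervals of the fit, and intervals of a single library's CPM are exact Poisson intervals that cover counting error only. A level of 3 reads is 0.372 CPM in a wild-type pachytene library of 8062396 counts, which sets the lowest level that can be told from 0 there. The fits were also run on simulated counts with known changes, whose outcome is not given here. These counts had a fixed dispersion and changes in well-counted genes only, so that genes with few reads are not covered.

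The 7 genes and the gene and marker lists were chosen with earlier results of these data known. Named in the text are the 7 genes, every listed gene called in *H2al2* KO, up to 2 listed genes per list and direction with the largest change and at least 1 CPM in the 2 wild-type steps to round and condensing spermatids, and the 3 genes most correlated with each variant. Of the genes this rule selects, 2 are not reported here. The lists held other variant H2A genes, clustered H2A genes, H2A.Z exchange factors, genes of H2A.X signalling, macroH2A partners and partners of H2A.L.2 and TH2B. Marker lists were those of 3 germ cell stages and of spermatogonium, Sertoli, Leydig, peritubular myoid, macrophage, red blood and epididymis epithelium cells. Exon lengths came from GENCODE M21 and upstream regions from RefSeq. The alternatives were DESeq2 size factors, the DESeq2 Wald test (DESeq2 1.42.0), library size only, no filter, at least 10 reads in every library, 18 libraries in 1 fit, spermatozoa added to the wild-type fit or fitted with condensing spermatids alone, no mitochondrial genes and *Rn45s*, other length scales for shares, a block for the replicate number, and fits with 1 library left out.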

Additional observations from a re-analysis of the deposited data

Results flagged for a closer look

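*H2afz*, the main H2A.Z gene, was flagged in a library that no comparison uses. In the single *H2al2* KO library of spermatozoa it had 373 reads, or 115 normalized CPM, with a 95% Poisson interval of 103 to 127 for counting error only. The 2 wild-type spermatozoa libraries had 58.5 (interval 50.7 to 67.3) and 56.1 (interval 47.7 to 65.5). The *H2al2* KO library lay above both, and with 1 library the difference was not tested. A difference of this size was not particular to *H2afz*. Against the wild-type mean, *Nap1l1* (87.0 and 172), *Supt16* (55.6 and 107) and *Parp1* (58.1 and 107) were also higher in the *H2al2* KO library. *Prm1* (1113 and 366) and *Hypm* (31.7 and 16.9) were lower. Macrophage markers summed to 3625 normalized CPM in the *H2al2* KO library against 781 and 740 in wild type, and condensing spermatid markers to 12635 against 39724 and 35460. The part of other cells in the *H2afz* value was not tested.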

How the results depend on the processing

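Of 194 counts of called variant genes recomputed under the alternatives, 186 stayed within 1.5 times the reported count. Among 1350 single-gene estimates, 34 lost and 9 gained a call and 50 changed sign, and 12 of 252 levels and 52 of 252 shares moved beyond 1 SD. For pachytene spermatocytes the count in *H2al2* KO was 0 and became 1 with the replicate block, the DESeq2 Wald test and the 18-library fit, and 0 to 1 with a library left out. The gene was *H2afb1*, with log2 fold changes of -2.68 (replicate block, adjusted p = 0.0269), -2.76 (DESeq2, 1.99e-11), -2.77 (18 libraries, 0.00377) and -3.06 to -2.49 (a library left out). It passed in 4 of 14 alternatives there (adjusted p = 1.99e-11 to 0.988 by edgeR's quasi-likelihood or the DESeq2 Wald test) and in 14 of 14 in round and in condensing spermatids. The 6 other variants passed in 0 of 249 alternative estimates of the KO effect, with a lowest adjusted p of 0.402. Nothing in the labels says that replicate numbers pair the libraries. Libraries of the same number had correlations of -0.138 to 0.213 over 7 pairs of groups, 0 of them above 0.1 throughout. With 3 libraries per group these values cannot decide whether libraries were paired. The replicate block raised the genes called over the whole table from 3 to 47 in round and from 1 to 41 in condensing spermatids, and the unfiltered fit gave 26 and 14, the DESeq2 Wald test 6 and 13, the 18-library fit 1 and 1, library size only 3 and 6 and the filter at 10 reads 3 and 3. In pachytene spermatocytes the 18-library fit called 3 and the DESeq2 Wald test 2, against 0.

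For condensing against round spermatids the *H2al2* KO count of 5 became 3 with the DESeq2 Wald test and 3 to 5 with a library left out, and the wild-type count of 3 became 1 to 4. The *H2afj* fall to wild-type round spermatids was also lost with DESeq2 size factors (adjusted p = 0.0692), at least 10 reads in every library (0.0829), the replicate block (0.0596) and the DESeq2 Wald test (0.128), and the DESeq2 Wald test lost *H2afv* in wild-type condensing against round spermatids (0.109, and 0.0525 unfiltered) and *H2afy2* in condensing spermatids against pachytene spermatocytes (0.0584). *H2afj* passed in *H2al2* KO round spermatids against pachytene spermatocytes by library size only (0.0275). Estimates near 0 changed sign. With the other settings these were the difference in KO effect of *H2afz* between condensing and round spermatids (0.015 unfiltered, 2.02e-05 with at least 10 reads and 0.013 without mitochondrial genes and *Rn45s*) and *H2afb1* in wild-type condensing against round spermatids (0.039 by library size only and 0.049 with at least 10 reads). With a library left out, KO effects in pachytene spermatocytes ran from -0.10 to 0.051 for *H2afx* and -0.59 to 0.13 for *H2afy2*. In round spermatids they ran from -0.076 to 0.041 for *H2afv*, -0.14 to 0.27 for *H2afx* and -0.087 to 0.083 for *H2afy*. In condensing spermatids they ran from -0.0098 to 0.28 for *H2afj*, -0.039 to 0.16 for *H2afv*, -0.21 to 0.041 for *H2afx*, -0.083 to 0.26 for *H2afy2* and -0.21 to 0.0088 for *H2afz*. The step in KO effect from pachytene spermatocytes to round spermatids ran from -0.53 to 0.051 for *H2afb1*, -0.068 to 0.28 for *H2afj*, -0.077 to 0.34 for *H2afx*, -0.10 to 0.079 for *H2afy* and -1.5e-04 to 0.19 for *H2afz*, and that from round to condensing spermatids from -0.0022 to 0.19 for *H2afv*, -0.30 to 0.11 for *H2afx*, -0.20 to 0.011 for *H2afy* and -0.13 to 0.086 for *H2afz*. Wild-type condensing against round spermatids ran from -0.22 to 0.076 for *H2afb1* and -0.050 to 0.21 for *H2afz*, and spermatozoa against condensing spermatids from -0.65 to 0.21 for *H2afy2*. The cause of these changes was not tested. Depth limits *H2afy2* and *H2afj* most, with 7 to 61 and 23 to 67 reads per library in the 3 replicated stages.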
